A study of Mus musculus with 97 samples.

Results

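Xrn1, Eri3, Trir and Rrp36 are genes of RNA decay and RNA processing, and they make up 4 of the 19962 genes measured in captured regions of mouse brain. They were chosen on measured values, because their probes gave counts above the negative probe, which has no target and measures background. Their levels are therefore given as a description, with no test. The NanoString GeoMx assay was used, in which probes are hybridised to a tissue section of 8 µm and ultraviolet light frees the tags of a chosen region for sequencing. The samples were 48 libraries of hippocampus and 49 of cortex from older mice in which human APOE4 or human APOE3 is knocked in, so every group carried a human APOE allele. Mice of each genotype received DD (doxorubicin at 3 mg/kg per week with docetaxel at 10 mg/kg per week), DC (doxorubicin at 3 mg/kg per week with cyclophosphamide at 40 mg/kg per week) or vehicle (dimethyl sulfoxide at 50% in phosphate-buffered saline), by intraperitoneal injection over 2 weeks. The 12 groups were APOE4 DD, APOE4 DC, APOE4 vehicle, APOE3 DD, APOE3 DC and APOE3 vehicle in hippocampus and the same in cortex, with 8 libraries each and 9 in APOE3 DD cortex. Which regions shared an animal is not stated in the labels, so each library of a captured region was treated as 1 sample. Some of them can share an animal, and every p-value below is then too small.

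Messenger RNA is taken apart from both ends. Xrn1 is the cytoplasmic exoribonuclease that digests RNA from the 5′ end once decapping enzymes have removed the cap, and it completes the main route of mRNA decay after the poly(A) tail has been shortened. Eri3 belongs to the ERI1 family of exoribonucleases, which work from the 3′ end. The product of Trir was described in human cells as a ribonuclease that binds the telomerase RNA component. Rrp36 acts in the nucleolus in early cleavages of the ribosomal RNA precursor that lead to the small ribosomal subunit, as known from yeast and human cells.

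In the RefSeq annotation of mm10, Xrn1 lies at chr9:95954750-96057806, Eri3 at chr4:117550241-117674297, Trir at chr8:85026811-85030291 and Rrp36 at chr17:46666323-46674326, and all 4 are protein coding. The 250 bases before the start used in RefSeq's promoter table, which lies a little inside the annotated gene for Xrn1 and Trir, are given below for Trir and Rrp36, which were both lower in hippocampus than in cortex, and for Xrn1, which was higher there. Capitals mark matches, on either strand, to the GC box GGGCGG, the ETS motif CCGGAAG, the CCAAT box CCAAT or the TATA motif TATAAA.
Xrn1: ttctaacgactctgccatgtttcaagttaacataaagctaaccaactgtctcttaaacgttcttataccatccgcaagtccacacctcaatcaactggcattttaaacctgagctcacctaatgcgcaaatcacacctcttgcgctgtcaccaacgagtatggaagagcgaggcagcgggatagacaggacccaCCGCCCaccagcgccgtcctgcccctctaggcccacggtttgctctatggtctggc
Trir: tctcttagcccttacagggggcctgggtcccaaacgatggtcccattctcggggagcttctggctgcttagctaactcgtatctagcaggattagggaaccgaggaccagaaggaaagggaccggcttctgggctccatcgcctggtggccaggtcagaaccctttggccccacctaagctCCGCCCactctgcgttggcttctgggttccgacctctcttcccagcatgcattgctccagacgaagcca
Rrp36: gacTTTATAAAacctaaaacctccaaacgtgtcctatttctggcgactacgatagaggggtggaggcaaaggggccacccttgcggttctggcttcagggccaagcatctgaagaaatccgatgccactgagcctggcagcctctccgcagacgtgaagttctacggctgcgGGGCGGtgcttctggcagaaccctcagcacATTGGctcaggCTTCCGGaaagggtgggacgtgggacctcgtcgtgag
The Xrn1 stretch is chr9:95954510-95954759 and the Trir stretch chr8:85026583-85026832, both on the plus strand, and the Rrp36 stretch is chr17:46674327-46674576 on the minus strand. Xrn1 and Trir each held 1 GC box, on the minus strand, and none of the other motifs. Rrp36 held a GC box, an ETS motif, a CCAAT box and a pair of overlapping TATA motifs at positions -247 and -245 from the start. Among 27025 promoters of the same length, 32.9% held the GC box, 7.05% the ETS motif, 34.5% the CCAAT box and 12.97% the TATA motif. The matches are descriptions of these letters and not of sites in use.

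All 4 genes stood out from a panel that mostly read background. The median of the 19962 genes lay at 0.923 times the negative probe. Over the 97 libraries the median ratio to the negative probe was 24.4 for Xrn1, 17.4 for Trir, 10.2 for Rrp36 and 4.53 for Eri3, which ranked them 11, 15, 22 and 33 among all genes. Each gene was read by a single probe target and probes differ in yield, so these ratios do not compare amounts of RNA between genes. Counts ran between 7 and 251 for Xrn1, between 4 and 311 for Trir, between 3 and 150 for Rrp36 and between 1 and 114 for Eri3. Xrn1, Trir and Rrp36 exceeded the negative probe in 97 of 97 libraries. Eri3 exceeded it in 90 and stood at 1, the lowest value of nearly every library, in the other 7.

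The rest of the RNA decay and processing machinery was not measured above background to the same degree. Of 137 genes in 7 lists (decapping and decay from the 5′ end, deadenylation, the RNA exosome, other exoribonucleases acting from the 3′ end, nonsense-mediated decay, early ribosomal RNA processing and telomerase RNA partners), 4 passed the low-count filter, and they were Xrn1, Eri3, Trir and Rrp36 themselves. The median ratio to the negative probe lay between 0.919 and 0.934 in the 7 lists. The highest among the other named genes were Cnot6l, a deadenylase, at 1.504, Exosc1, a subunit of the exosome, at 1.29, and Rbm7, of a nuclear exosome-targeting complex, at 1.22. The other leading members of lists with no tested gene lay at the negative probe: Cnot9, of the CCR4-NOT deadenylase complex, at 0.947, Smg1 and Smg5 of nonsense-mediated decay at 0.976 and 0.947, and Naf1 and Nhp2, which assemble telomerase RNA with its proteins, at 0.964 and 0.947. Groups are not compared for these genes here.

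Depth and background differed widely between libraries. Total counts per library lay between 21568 and 1850582, and the genes that passed the filter held 717 to 14054 counts per library. The negative probe was highest in APOE4 DC hippocampus, with a median of 10.9, against 2.03 in APOE4 vehicle hippocampus. The mean log2 difference was 2.37 (two-sided exact permutation test over 8 and 8 libraries, p = 0.00466, adjusted over 8 contrasts p = 0.0373), and over runs of neighbouring wells the exact p was 0.114. In APOE4 DC hippocampus the ratio to the negative probe was below 2 in 1 of 8 libraries for Xrn1, in 2 for Trir, in 4 for Rrp36 and in 4 for Eri3. The tissue labels could not be checked on defining markers: of 58 markers in 10 lists of brain cell types and of hippocampus and cortex, 0 passed the filter. The median ratio to the negative probe lay between 0.903 and 1.08 in the marker lists. Fewer cells of a type and less RNA per cell cannot be told apart in such regions. Counts of the excitatory neuron markers, averaged over the list and divided by the negative probe, had a lowest, median and highest value of 0.769, 1.24 and 1.95 in hippocampus and of 0.885, 1.47 and 2.52 in cortex. The medians of the other lists lay between 0.995 and 1.10 in hippocampus and between 0.993 and 1.21 in cortex. Those of inhibitory neurons and of hippocampus markers were higher in hippocampus, and the rest higher in cortex. The part of cell types in the regional differences given below was not tested.

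Levels below are counts per 1000 counts of the 58 genes tested over all 12 groups, after TMM scaling of the libraries, a normalisation that centres the bulk of these genes. For Xrn1 the 6 hippocampus groups took the 6 highest places, led by APOE4 vehicle hippocampus with 28.2 ± 5.1 and closed by APOE4 DC hippocampus with 19.0 ± 8.8, where ± is the SD of 8 libraries, or of 9 in APOE3 DD cortex. Among the cortex groups Xrn1 was highest in APOE4 vehicle, with 14.3 ± 2.3, and lowest in APOE3 DC and APOE3 DD, with 8.15 ± 4.01 and 7.86 ± 2.42. For Eri3 the hippocampus groups again took the 6 highest places, with means between 3.75 ± 2.67 in APOE3 vehicle and 5.39 ± 3.58 in APOE3 DC, above cortex means between 1.54 ± 0.65 in APOE3 DD and 2.72 ± 0.63 in APOE3 DC. Trir and Rrp36 had the opposite order, and the 6 cortex groups took the highest places. Trir means lay between 7.16 ± 1.03 in APOE4 DC and 10.8 ± 1.2 in APOE4 DD in hippocampus, and between 14.4 ± 2.3 in APOE4 vehicle and 17.1 ± 3.6 in APOE3 DD in cortex. Rrp36 means lay between 4.61 ± 1.62 in APOE4 vehicle and 6.73 ± 1.97 in APOE3 DC in hippocampus, and between 8.71 ± 1.65 in APOE4 DC and 12.2 ± 2.8 in APOE3 DC in cortex. Groups next to each other in the order rarely separated: of 11 neighbouring pairs on the log2 scale, 0 differed by more than their SD for Xrn1, Eri3 and Rrp36. For Trir 1 pair did, APOE4 vehicle cortex and APOE4 DD hippocampus, where the order passes between the regions.

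**Figure D1:**
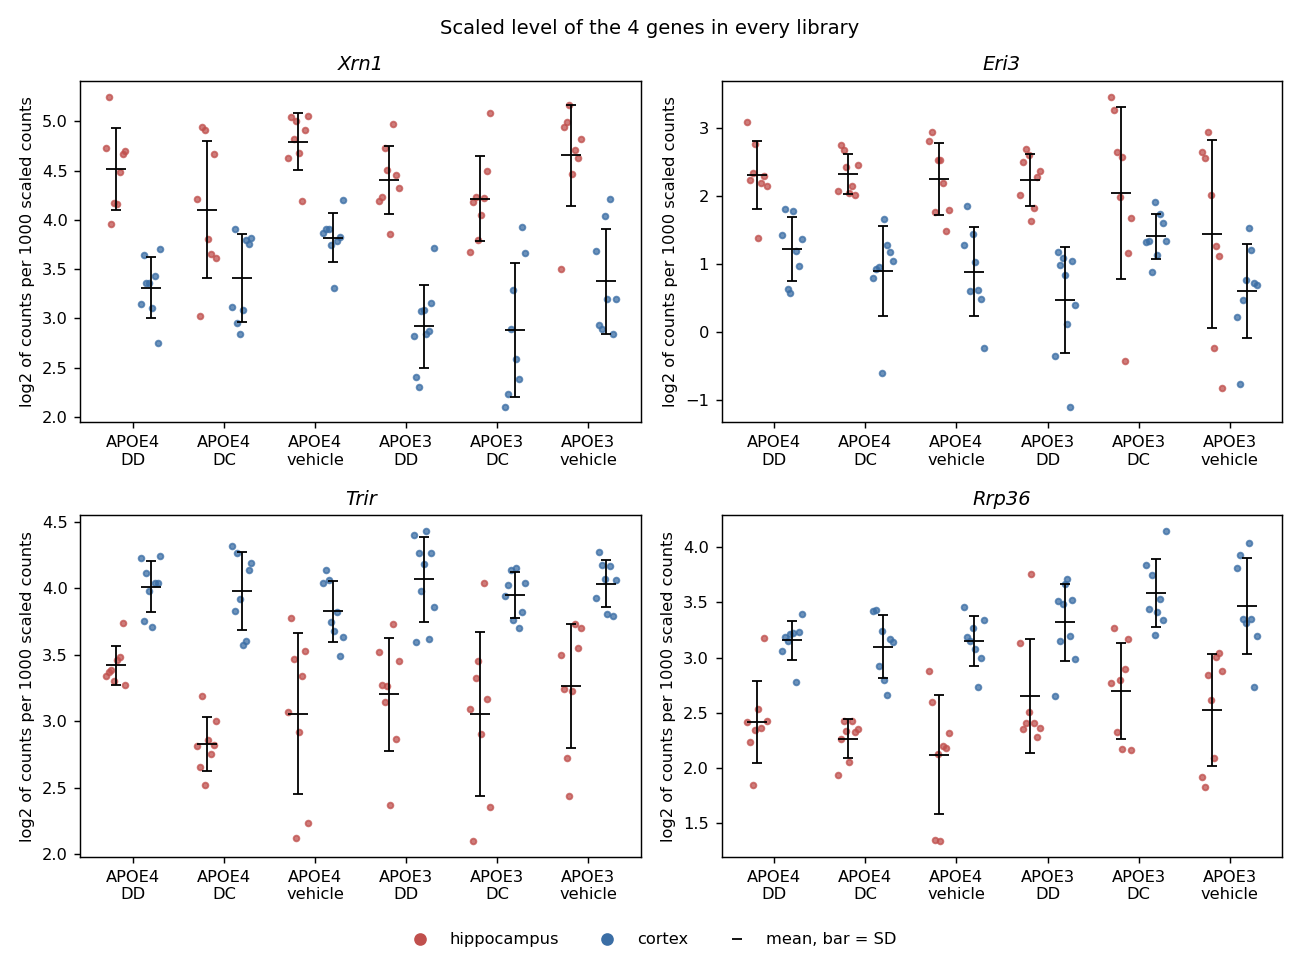
Scaled level of each gene in every library (y axis, log2 of counts per 1000 TMM-scaled counts of the 58 tested genes), with hippocampus libraries in red beside cortex libraries in blue for each genotype and treatment. Bars are group means with SD (n = 8, and 9 in APOE3 DD cortex); Xrn1 and Eri3 sit higher in hippocampus, Trir and Rrp36 lower.

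Hippocampus and cortex differed in all 4 genes, in opposite directions. The fold differences here are on TMM scaling of the tested genes, averaged over the 6 pairings of genotype and treatment. Xrn1 and Eri3 were 2.28-fold and 2.38-fold higher in hippocampus than in cortex, and Trir and Rrp36 were 1.73-fold and 1.75-fold lower. Each gene passed in the mean and in each of the 6 pairings under edgeR's quasi-likelihood test with Benjamini-Hochberg adjustment. Differences between the regions were common in these data: 84.5% of the 58 tested genes passed in the mean of the pairings. In the pairings themselves 62.1% passed in APOE4 DD, 62.1% in APOE4 DC, 56.9% in APOE4 vehicle, 58.6% in APOE3 DD, 51.7% in APOE3 DC and 51.7% in APOE3 vehicle. A call in this comparison is therefore not particular to these 4 genes. Overlap of the groups was examined in these 4 genes only. The pairings without overlap given below are therefore not read as particular to them. Of the 58 tested genes, Eri3 ranked 7 and Xrn1 11 from the highest log2 difference, and Rrp36 ranked 6 and Trir 7 from the lowest.

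Xrn1, the exoribonuclease acting from the 5′ end, had a lowest, median and highest level of 8.13, 22.6 and 38.1 in the 48 hippocampus libraries, and of 4.29, 9.18 and 18.5 in the 49 cortex libraries. The ranges overlapped, but 47 of 48 hippocampus libraries lay above the cortex mean of their own genotype and treatment. The mean log2 difference was 1.19 (SE 0.09, adjusted p = 1.82e-23). It was largest in APOE3 DD, with a mean of 21.8 ± 5.3 in hippocampus and 7.86 ± 2.42 in cortex (log2 1.48, SE 0.22, adjusted p = 1.30e-08), where no hippocampus library fell to the level of any cortex library. It was smallest in APOE4 DC, with 19.0 ± 8.8 in hippocampus and 11.1 ± 3.3 in cortex (log2 0.75, SE 0.20, adjusted p = 0.000486), the groups with the highest negative probe.

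Eri3 had a lowest, median and highest level of 0.567, 4.79 and 11.1 in hippocampus and of 0.466, 2.04 and 3.79 in cortex. In 44 of 48 hippocampus libraries it lay above the cortex mean, and the groups did not overlap in APOE4 DC and APOE3 DD. The mean log2 difference was 1.25 (SE 0.12, adjusted p = 1.38e-16), and the pairings lay between 0.99 in APOE3 DC and 1.69 in APOE3 DD. Each fit that left out 1 library, here and below, filtered the genes and scaled the remaining libraries anew. A change in such a fit therefore need not come from the value of the library left out. The call in APOE3 DC (adjusted p = 0.0139) was lost without hippocampus library 1 (log2 0.65, adjusted p = 0.126), hippocampus library 2 (0.80, 0.0541) or cortex library 5 (0.80, 0.0592). The call in APOE3 vehicle (log2 1.02, adjusted p = 0.0193) was lost without cortex library 1 (0.84, 0.0553), cortex library 3 (0.93, 0.0512) or hippocampus library 3 (0.90, 0.0658). Both of these groups held Eri3 counts of 1 in some libraries.

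Trir, the ribonuclease named for the telomerase RNA, had a lowest, median and highest level of 4.28, 9.53 and 16.4 in hippocampus and of 11.2, 16.4 and 21.6 in cortex. In 47 of 48 hippocampus libraries it lay below the cortex mean, and the groups did not overlap in APOE4 DC and APOE3 vehicle. The mean log2 difference was -0.79 (SE 0.07, adjusted p = 5.46e-20), and the pairings lay between -1.16 in APOE4 DC and -0.60 in APOE4 DD. The APOE4 DD call (adjusted p = 0.000245) was lost without hippocampus library 1 (log2 -0.39, adjusted p = 0.0888) or hippocampus library 2 (-0.38, 0.0922). The Trir levels of these 2 libraries, 10.11 and 10.35, lay near the group mean of 10.76. The APOE3 vehicle call (log2 -0.71, adjusted p = 0.000397) was lost without hippocampus library 3 (-0.41, 0.117) or hippocampus library 4 (-0.45, 0.0782).

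Rrp36, the ribosomal RNA processing factor, had a lowest, median and highest level of 2.52, 5.15 and 13.5 in hippocampus and of 6.27, 9.46 and 17.7 in cortex. In 46 of 48 hippocampus libraries it lay below the cortex mean, and the groups did not overlap in APOE4 DC. The mean log2 difference was -0.80 (SE 0.07, adjusted p = 3.12e-18), and the pairings lay between -0.95 in APOE4 vehicle and -0.67 in APOE4 DD. No single library ended a Rrp36 or an Xrn1 call in any of the 6 pairings.

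**Figure D2:**
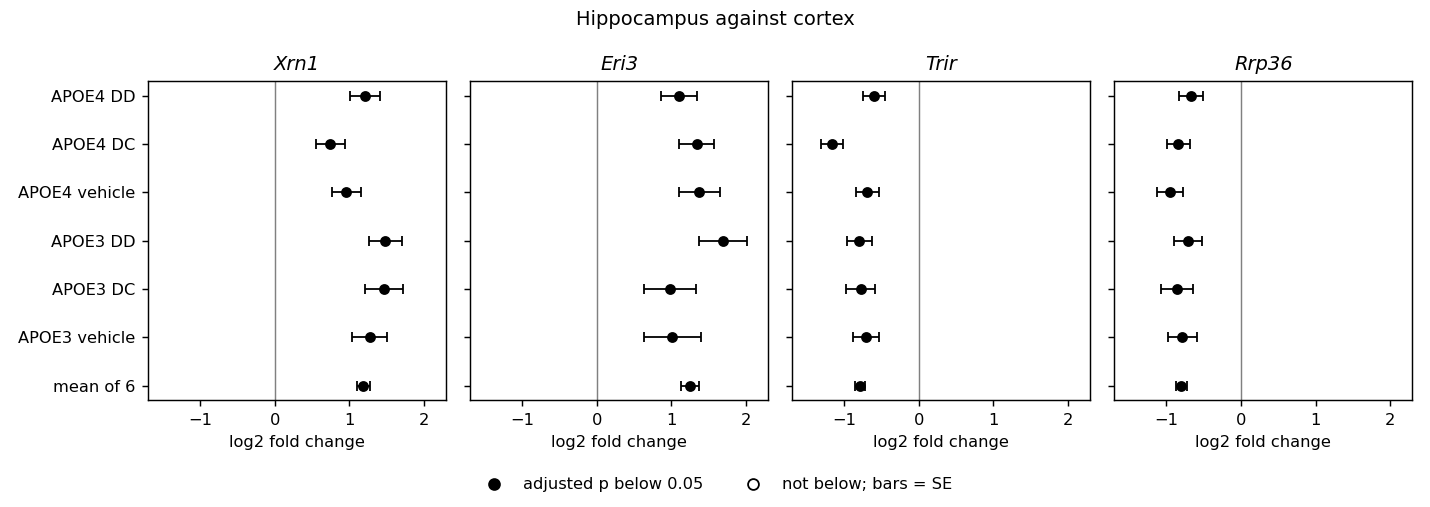
Log2 fold change of hippocampus over cortex (x axis) for each pairing of genotype and treatment and for their mean (y axis), with SE bars from the edgeR fit of all 12 groups. Filled points have an adjusted p below 0.05, which holds for all points shown; Xrn1 and Eri3 lie right of 0, Trir and Rrp36 left of it.

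The regional difference was not shown to vary with genotype or treatment. None of 12 tests of its difference between APOE4 and APOE3, between DD and vehicle or between DC and vehicle passed, where 8.62%, 0% and 0% of the tested genes passed. The nearest was Xrn1, whose hippocampus to cortex difference was smaller in APOE4 than in APOE3 by a log2 value of -0.43 (SE 0.18, 95% interval -0.78 to -0.09, unadjusted p = 0.0163, adjusted p = 0.135). DESeq2 called 0 of the 12.

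The size of all 4 differences, and the sign of those of Xrn1 and Eri3 in some pairings, depended on how libraries were scaled. Mtch2, whose protein inserts others into the outer mitochondrial membrane, held 43.1% ± 10.9 of the tested counts in hippocampus (SD, n = 48) and 23.3% ± 8.1 in cortex (SD, n = 49), and was itself higher in hippocampus (log2 1.46, SE 0.11, adjusted p = 4.09e-23). When libraries were scaled to the summed counts of all genes, most of which read background, the median log2 difference of the tested genes shifted by -0.93. On that scale Trir and Rrp36 were lower in hippocampus and passed in all 6 pairings, with mean log2 differences of -1.72 and -1.74. Xrn1 and Eri3 had mean log2 differences of 0.35 and 0.36 (adjusted p = 0.0255 and 0.0265), but passed in 0 of 6 pairings. There Xrn1 lay below 0 in APOE4 DC (log2 -0.26), and Eri3 in APOE4 DC and APOE3 DC (-0.04 and -0.08). With the counts of neighbouring wells of a group summed, the mean log2 difference was 0.71 for Xrn1 and 0.75 for Eri3, and -1.33 for Trir and -1.35 for Rrp36. In that fit Xrn1 passed in 0, Eri3 in 1, Trir in 3 and Rrp36 in 4 of 6 pairings. Without the low-count filter, where all genes were tested, Xrn1 passed in 6, Eri3 in 3, Trir in 2 and Rrp36 in 2.

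**Figure D3:**
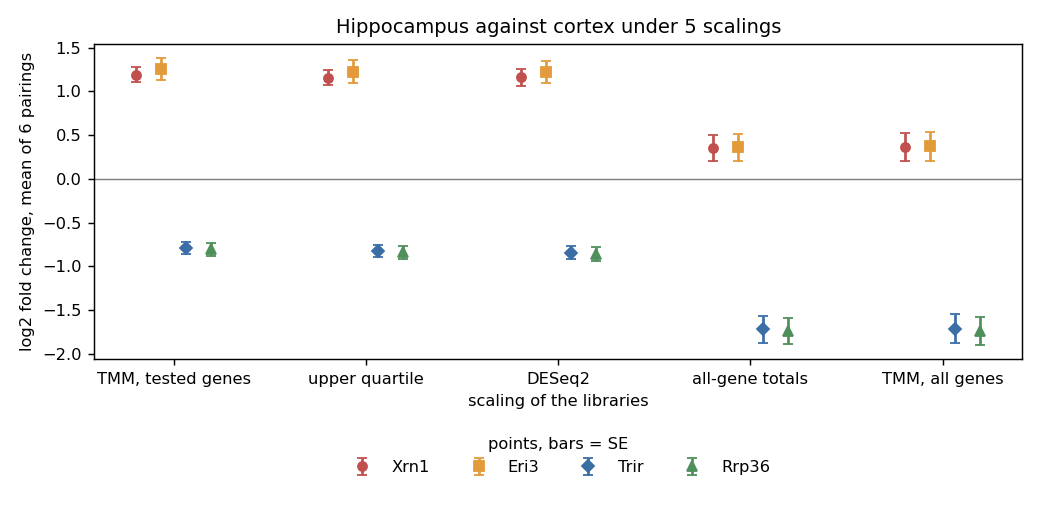
Mean log2 fold change of hippocampus over cortex over the 6 pairings (y axis, SE bars) for each gene under 5 ways of scaling the libraries (x axis). The gap between the pair Xrn1 and Eri3 and the pair Trir and Rrp36 has a similar width under each scaling, while the whole set sits lower under both scalings that use all genes.

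Ratios of 2 genes within a library need no scaling, but background was not subtracted from these counts. The negative probe was 5 or more in 6 of 8 APOE4 DC hippocampus libraries and in 4 of 8 APOE4 DC cortex libraries. Its part in the ratios was not tested. The ratios were formed after the opposite directions above had been seen in the same libraries, so their p-values are no independent evidence of those directions. Ratios of other tested genes were not formed. In the mean of the pairings 24 of the 58 tested genes passed as higher in hippocampus and 25 as lower. Passes of the ratios below are therefore not read as particular to these 4 genes. The log2 ratio of Xrn1 to Trir averaged 1.10 ± 0.44 in APOE4 DD hippocampus and -0.70 ± 0.36 in APOE4 DD cortex (SD, n = 8 each), a difference of 1.80. Over the 6 pairings the Xrn1 to Trir ratio was higher in hippocampus by 1.74 to 2.35, and the ratio of Xrn1 to Rrp36 by 1.53 to 2.22. Both passed in 6 of 6 pairings in two-sided exact permutation tests over libraries (largest p = 0.000589, adjusted over 36 ratio tests). The groups did not overlap in 5 pairings for Xrn1 to Trir and in 4 for Xrn1 to Rrp36. Neighbouring wells were also averaged into runs, with 4 runs against 4 or 5, where the smallest possible p is 0.0286 or 0.0159, and every Xrn1 ratio to Trir or Rrp36 reached it.

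Eri3 gave the same direction with more spread. Its log2 ratio to Trir was higher in hippocampus by 1.53 to 2.64 and its ratio to Rrp36 by 1.52 to 2.44, and both passed in 6 of 6 pairings (exact permutation tests, largest adjusted p = 0.0443 and 0.0295). Over runs of wells the APOE3 vehicle pairing gave exact p = 0.171 for Eri3 to Trir and 0.143 for Eri3 to Rrp36. Within each pair fewer ratios passed. Xrn1 to Eri3 differed between the regions by -0.73 in APOE4 DC (exact permutation p = 0.0561, adjusted p = 0.0777) to 0.70 in APOE3 DC, and passed in 0 of 6 pairings, which does not show that the ratio was the same. Trir to Rrp36 differed by -0.32 to 0.26 and passed in 1, APOE4 DC (log2 0.56 ± 0.25 in hippocampus and 0.88 ± 0.28 in cortex, SD, n = 8 each, exact permutation test, adjusted p = 0.0443). The APOE4 DC groups are those with most libraries of high negative probe, and its part in these values was not tested.

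**Figure D4:**
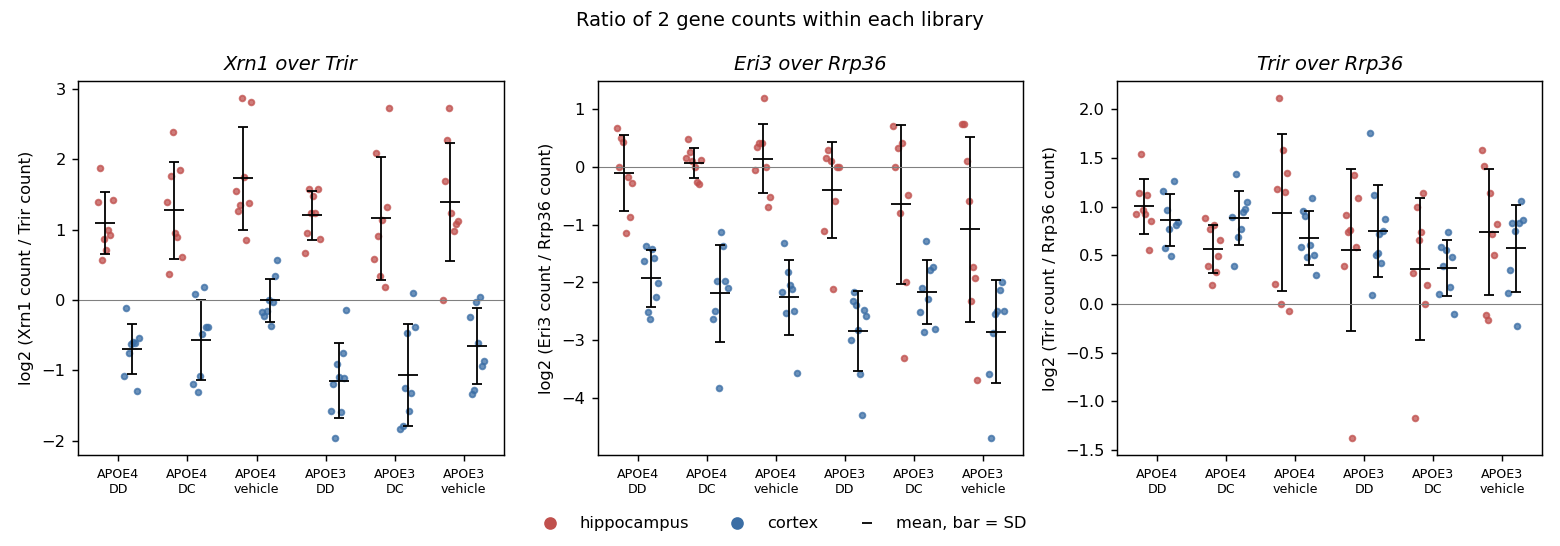
Log2 ratio of 2 gene counts within each library (y axis) by genotype and treatment, hippocampus in red beside cortex in blue, with mean and SD bars. The ratios of Xrn1 to Trir and of Eri3 to Rrp36 are higher in hippocampus in all 6 pairings, while the Trir to Rrp36 ratio overlaps between the regions in all 6.

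Within a region, differences come from the fit of that region's 6 groups, while levels stay on the scale of all 12. Few contrasts of chemotherapy with vehicle passed in these genes. Of 32 tests of DD or DC against vehicle, 1 passed: Xrn1 was 1.43-fold lower in APOE4 DD cortex than in APOE4 vehicle cortex. The lowest, median and highest Xrn1 level was 6.72, 10.3 and 13.1 in DD and 9.90, 14.4 and 18.4 in vehicle. All 8 DD libraries lay below the vehicle mean, although the ranges overlapped. The log2 difference was -0.51 (SE 0.18, edgeR adjusted p = 0.0490) in the fit of the 6 cortex groups, and 12.3% of the 57 genes tested in cortex passed in that contrast. The call sat at the threshold and was lost under 9 of 11 alternatives, among them runs of wells as a random block (adjusted p = 0.125) and wells summed (0.778). It was also lost in 8 of the 16 fits that left out 1 library of the groups compared, without APOE4 DD cortex library 1, 3, 4, 5, 6 or 7 or vehicle library 1 or 2 (adjusted p up to 0.124). Mtch2 held 18.5% ± 3.0 of the tested counts in APOE4 DD cortex and 26.6% ± 5.8 in APOE4 vehicle cortex (SD, n = 8 each), and its part in the Xrn1 difference was not tested.

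Xrn1 had a negative log2 difference from vehicle in all 8 contrasts, between -0.58 in APOE3 DC cortex (SE 0.23, adjusted p = 0.0862) and -0.18 in APOE3 DD hippocampus (SE 0.20, adjusted p = 0.692). In APOE4 DC hippocampus the lowest, median and highest level was 8.13, 16.3 and 30.8, against 18.3, 29.2 and 33.3 in APOE4 vehicle hippocampus (log2 -0.46, SE 0.18, adjusted p = 0.0516). DD and DC were each compared with the same vehicle libraries, so the 8 values are not independent. Unadjusted p was under 0.05 in 6 of the 8. The same held in cortex for 10 and 13 of the 57 tested genes in APOE4 DD and DC. In APOE3 DD and DC cortex it held for 5 and 18. In hippocampus it held for 10 and 18 of 38 genes in APOE4 DD and DC, and for 5 and 10 in APOE3. Some fits that left out 1 library passed: APOE4 DC cortex without vehicle library 3, 4, 5 or 6 (log2 as low as -0.61), and APOE3 DC cortex without vehicle library 2, 3, 7 or 8 or DC library 4, 7 or 8 (as low as -0.73). In hippocampus this held for APOE4 DC without vehicle library 1, 3 or 6 or DC library 1, 3, 4 or 7 (as low as -0.53), and for APOE4 DD without vehicle library 1 (-0.56). The share of tested genes that passed was 1.75% for APOE4 DC, 3.51% for APOE3 DD and 12.3% for APOE3 DC in cortex. In hippocampus it was 5.26% for APOE4 DD, 21.1% for APOE4 DC, 2.63% for APOE3 DD and 21.1% for APOE3 DC.

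Eri3 did not pass against vehicle in any of 8 contrasts. Its highest values were in APOE3 DC, with 5.39 ± 3.58 in DC hippocampus and 3.75 ± 2.67 in vehicle hippocampus (log2 0.85, SE 0.39, 95% interval 0.08 to 1.62, adjusted p = 0.150), and 2.72 ± 0.63 in DC cortex and 1.67 ± 0.70 in vehicle cortex (log2 0.76, SE 0.33, adjusted p = 0.110). The hippocampus difference passed without vehicle library 3 (log2 1.18, adjusted p = 0.0451) or DC library 6 (1.08, 0.0347). Trir and Rrp36 did not pass in any of 8 contrasts each. The log2 differences lay between -0.06 and 0.20 for Trir, with 95% intervals that together spanned -0.41 to 0.52. For Rrp36 they lay between -0.05 and 0.31, with intervals that together spanned -0.34 to 0.73.

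Both regimens contain doxorubicin and differ in the partner, docetaxel, a taxane that stabilises microtubules, or cyclophosphamide, an alkylating agent. Between DD and DC, given at the doses above, 0 of 16 tests passed under edgeR's quasi-likelihood test, 1 had an unadjusted p under 0.05, and DESeq2 called 0. That 1 was Eri3 in APOE3 cortex, with a lowest, median and highest level of 0.466, 1.79 and 2.28 in 9 DD libraries and of 1.86, 2.53 and 3.79 in 8 DC libraries (log2 -0.88, SE 0.29, 95% interval -1.45 to -0.31, adjusted p = 0.167). All 9 DD libraries lay below the DC mean. In the DD to DC contrasts 0% of tested genes passed in APOE4 cortex, 0% in APOE3 cortex, 10.5% in APOE4 hippocampus and 0% in APOE3 hippocampus. In APOE3 cortex 12 of the 57 tested genes had an unadjusted p under 0.05. Other processing gave more calls in the 16 tests, 4 of them with libraries scaled to the summed counts of all genes. There Rrp36 and Eri3 passed in APOE4 hippocampus (log2 1.22 and 1.11, edgeR adjusted p = 0.00395 and 0.00669). Their signs were opposite to the main fit (-0.15 and -0.35).

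APOE4 and APOE3 libraries differed in 3 of 24 tests, all in cortex of treated mice. The names of the 2 collection plates split exactly by genotype, so genotype and plate cannot be told apart. The median negative probe was 2.68 in APOE4 and 1.27 in APOE3 libraries, and the tested genes held a median of 4563 counts in APOE4 and 1889 in APOE3 libraries. Their part in the differences was not tested.

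Rrp36 was 1.38-fold lower in APOE4 DC cortex, with a lowest, median and highest level of 6.32, 8.89 and 10.8, against 9.21, 11.2 and 17.7 in APOE3 DC cortex. The log2 difference was -0.47 (SE 0.15, edgeR adjusted p = 0.0152), and all 8 APOE4 libraries lay below the APOE3 mean. Scaled to the summed counts of all genes, it was 0.01 (adjusted p = 0.984), with the sign turned, and with TMM factors over all genes it was 0.18 (adjusted p = 0.774). Without libraries whose negative probe was 5 or more, 4 of 8 in APOE4 DC cortex, it was -0.26 (adjusted p = 0.248), and with wells summed -0.27 (adjusted p = 0.626). Rrp36 had a negative difference in all 6 genotype contrasts, the smallest -0.18 in DC hippocampus (SE 0.22, adjusted p = 0.698).

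Xrn1 was 1.56-fold higher in APOE4 DC cortex, with a lowest, median and highest level of 7.15, 11.1 and 15.1, against 4.29, 6.71 and 15.2 in APOE3 DC cortex. The log2 difference was 0.64 (SE 0.21, edgeR adjusted p = 0.0175). The ranges overlapped, with 6 of 8 APOE4 libraries above the APOE3 mean and 4 of 8 APOE3 libraries below the lowest APOE4 library. The call was lost under 5 of 11 alternatives, among them without libraries of high negative probe (log2 0.48, adjusted p = 0.125), and in 10 of the 16 fits without 1 library (APOE4 library 2, 5, 6, 7 or 8, or APOE3 library 1, 2, 4, 6 or 8, adjusted p up to 0.0959). Xrn1 had a positive difference in all 6 genotype contrasts, from 0.10 in DD hippocampus (SE 0.19, adjusted p = 0.760) to that value. It was 0.47 in vehicle cortex (SE 0.20, adjusted p = 0.0768) and 0.33 in vehicle hippocampus (SE 0.19, adjusted p = 0.180). It passed in vehicle cortex without APOE3 library 6 (log2 0.64, adjusted p = 0.0199) and in DD cortex without APOE3 library 9 (0.49, 0.0493).

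Eri3 was 1.64-fold higher in APOE4 DD cortex, with a lowest, median and highest level of 1.49, 2.44 and 3.53 in 8 libraries, against 0.466, 1.79 and 2.28 in 9 APOE3 DD cortex libraries. The log2 difference was 0.71 (SE 0.25, edgeR adjusted p = 0.0317), with 7 of 8 APOE4 libraries above the APOE3 mean. The call was lost under all 11 alternatives, DESeq2 (adjusted p = 0.0936), runs of wells as a random block (0.151) and the negative probe subtracted (0.166) among them. It was also lost in 8 of the 17 fits without 1 library (APOE4 library 1, 2, 5, 6, 7 or 8, or APOE3 library 6 or 7, adjusted p up to 0.153). In DC cortex the Eri3 difference had the opposite sign (log2 -0.44, SE 0.26, adjusted p = 0.202), and in vehicle hippocampus it was 0.74 (SE 0.33, adjusted p = 0.0734). The DC cortex difference passed without APOE4 library 5 (log2 -0.73, adjusted p = 0.0334), and the vehicle hippocampus difference without APOE4 library 3 or 7 or APOE3 library 1 or 3 (up to 1.00). Trir passed in 0 of 6 genotype contrasts, with log2 differences between -0.12 and 0.13.

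The genotype contrasts moved many genes. In cortex 21.1% of tested genes passed in DD, 24.6% in DC and 21.1% in vehicle libraries, and in hippocampus 7.89%, 21.1% and 39.5% in the same order. The 3 calls of 24 in these genes are to be read against these shares. Whether the treatment differences themselves differed between APOE4 and APOE3 was tested in 16 interaction contrasts. None passed under edgeR's quasi-likelihood test, 0 had an unadjusted p under 0.05, and DESeq2 called 0. The shares of tested genes that passed were 0% for DD and 3.51% for DC in cortex, and 0% for DD and 5.26% for DC in hippocampus.

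**Figure D5:**
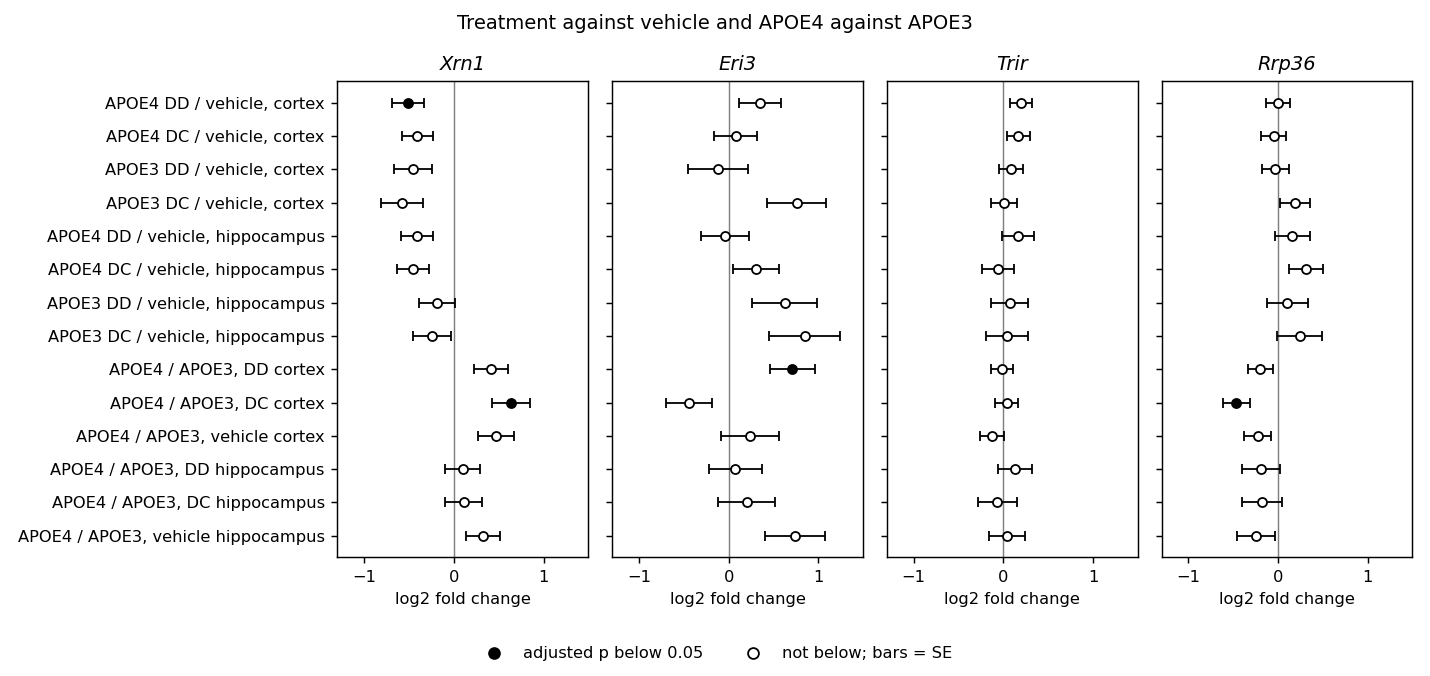
Log2 fold change of each regimen over vehicle and of APOE4 over APOE3 (x axis) in each region (y axis), with SE bars from the edgeR fit of that region. Filled points have an adjusted p below 0.05: Xrn1 in APOE4 DD cortex on the left of 0, Eri3 (DD cortex) and Xrn1 (DC cortex) right of it and Rrp36 (DC cortex) left of it between genotypes; Trir stays within 0.20 of 0.

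The genes most like each member over the 12 group means are given here as a description of groups that share libraries and scaling. The group-mean log2 levels of Xrn1 correlated most with the predicted gene Gm46840 (r = 0.97, n = 12 groups), with Hmga2, a chromatin protein of embryonic tissue (r = 0.96), and with the predicted gene Gm34733 (r = 0.95). Within groups, over the deviations of 97 libraries, the correlation was 0.73 with Gm46840, 0.69 with Hmga2 and 0.32 with Gm34733. For Eri3 the nearest were Inhbb, a subunit of activins and inhibins (r = 0.94), Vmn1r189, a vomeronasal receptor (0.92), and Olfr655, an olfactory receptor (0.90), with within-group values of 0.20, 0.21 and 0.07. For Trir they were Gm52523 (0.94), Tysnd1, a peroxisomal protease (0.93), and Gm10265 (0.93), with within-group values of 0.26, 0.28 and 0.30. For Rrp36 they were Gm40755 (0.98), Tubg1, a gamma tubulin (0.94), and Chic2, a membrane protein (0.92), with within-group values of 0.21, 0.24 and 0.36.

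Among themselves the genes paired by region, with correlations near 0 within groups for both pairs. Trir and Rrp36 correlated at r = 0.90 over the 12 group means, and Xrn1 and Eri3 at r = 0.77. Over deviations within groups the correlations were 0.04 for Trir and Rrp36 and -0.01 for Xrn1 and Eri3 (n = 97 libraries). Among the 6 hippocampus groups alone r was 0.34 for Trir and Rrp36 and -0.34 for Xrn1 and Eri3, and among the 6 cortex groups alone 0.23 and -0.13. Between the pairs r over group means lay between -0.91 (Xrn1 and Rrp36) and -0.84 (Eri3 and Rrp36). Within groups it lay between -0.27 (Eri3 and Trir) and 0.02 (Xrn1 and Rrp36). Among the hippocampus groups alone it lay between -0.35 (Eri3 and Rrp36) and 0.53 (Xrn1 and Trir). Among the cortex groups alone it lay between -0.65 (Xrn1 and Trir) and 0.13 (Eri3 and Rrp36), with -0.63 for Xrn1 and Rrp36.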

How the data were processed

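The deposited table holds expected counts per probe target, made by the authors and not scaled to depth, in 19963 rows (19962 genes and the combined negative probe) and 97 libraries. Only 4 rows hold values that are not whole, and all were rounded for the models. The lowest value is 1 in 94 libraries. Per the submitters' processing notes the build is mm10; how reads were counted is not given in the sources used here. Genotype, treatment and region of each library came from the labels. Genes with low counts were dropped by filterByExpr (minimum count 10), libraries were then scaled by TMM, and edgeR 4.0.16 (R 4.3.3) gave quasi-likelihood tests, with p-values adjusted by Benjamini-Hochberg over all genes tested and a threshold of 0.05. Each region was fitted over its 6 groups (57 genes in cortex, 38 in hippocampus) for 22 contrasts in all. All 12 groups were fitted together (58 genes) for 10 contrasts of hippocampus with cortex. Simulated counts were run only through the cortex fit, with library totals in place of TMM scaling. The other fits and tests were not run on simulated data. Log2 levels used a prior count of 2 where genes were compared for likeness. Exact permutation tests over libraries, two-sided, served for the negative probe and for ratios of genes. The ratios were added after the data were seen. Alternatives were upper-quartile scaling, 2 scalings over all genes, DESeq2 1.42.0, no filter, runs of wells (49, of which 48 hold 2 libraries) as a random block (limma 3.58.1) or summed, values of 1 set to 0, the negative probe subtracted, libraries with a negative probe of 5 or more left out, another choice of groups in the fit, and each library left out in turn. The genes described were the 4 members, the 3 genes most like each in group means, the leading members of the lists, and Mtch2. The members, lists and tests were chosen with earlier results of these data known. Sequences and coordinates come from RefSeq tables for mm10, which held all 4 symbols. P-values measure the spread between libraries, which may be technical.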

Additional observations from a re-analysis of the deposited data

Results flagged for a closer look

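Of 48 combinations of gene and group, 3 held a library far from the rest of its group, and chance flags about 1 in 20. Xrn1 in APOE3 vehicle hippocampus 1 stood at 11.3 per 1000 scaled counts, from 9 counts, where the other 7 libraries of that group lay between 22.2 and 36.0. Eri3 in APOE4 DC cortex 4 stood at 0.66 per 1000, from 6 counts, where the others lay between 1.73 and 3.17. Trir in APOE4 DD hippocampus 7 stood at 13.4 per 1000, from 81 counts, where the others lay between 9.69 and 11.2.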

How the results depend on the processing

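No paired analysis was possible because the labels give no replicate numbers. All 4 mean regional differences kept their sign and call under each alternative run over the 6 pairings. For groups compared alone the mean covered vehicle libraries only, in the APOE4 and APOE3 vehicle pairings. That vehicle-only mean was 1.31 for Xrn1, -0.50 for Trir and -0.68 for Rrp36, and kept sign and call. Eri3 had no such mean, and only 3 of its 6 pairings. With 1 library left out the means over 6 pairings stayed between 0.85 and 1.29 (Xrn1) and 0.87 and 1.34 (Eri3). For Trir they stayed between -1.17 and -0.69, and for Rrp36 between -1.18 and -0.73. Member calls between regions, 28 of 40, were 16 under both scalings over all genes (library totals, and TMM over all genes), 17 without the filter, 12 with wells summed and 26 to 28 with 1 library left out. Regional differences turned sign for Xrn1 in APOE4 DC under totals (-0.26), TMM over all genes (-0.27), wells summed (-0.078) and groups compared alone (-0.14), and for Eri3 in APOE4 DC (-0.039, -0.071) and APOE3 DC (-0.079, -0.049) under totals and TMM over all genes. Calls of treatment against vehicle, 1 of 32, were 0 under upper-quartile scaling, no filter, the block or wells summed, 2 with values of 1 set to 0, the negative probe subtracted or high-negative libraries left out, 3 under totals or DESeq2, 5 under TMM over all genes and 0 to 3 with 1 library left out. Calls of DD against DC, 0 of 16, were 4 under totals or TMM over all genes, 1 with wells summed and 1 with all 12 groups fitted. Calls of APOE4 against APOE3, 3 of 24, were 5 under upper-quartile scaling, 1 with values of 1 set to 0, 0 under totals, TMM over all genes, no filter, high-negative libraries left out or wells summed, and 2 to 4 with 1 library left out. Xrn1 in APOE4 DD against vehicle cortex lost its call at -0.54 (upper quartile), -0.50 (totals), -0.56 (TMM over all genes), -0.51 (no filter), -0.51 (block), -0.50 (values of 1 set to 0), -0.54 (high-negative left out), -0.46 (wells summed) and -0.50 (all 12 groups), and ran between -0.73 and -0.43 with 1 library left out. Eri3 in APOE4 against APOE3, DD cortex, lost it at 0.72, 0.50, 0.57, 0.70, 0.66, 0.79, 0.62, 0.56 and 0.66 in that order, at 0.65 under DESeq2 and at 0.71 with the negative probe subtracted, and ran between 0.54 and 0.86. Xrn1 in DC cortex between genotypes lost it at 0.98 (totals), 1.19 (TMM over all genes), 0.56 (no filter), 0.48 (high-negative left out) and 0.70 (wells summed), and ran between 0.52 and 0.77. Rrp36 there turned sign under totals (0.0070) and TMM over all genes (0.18), lost its call at -0.48 (no filter), -0.29 (values of 1 set to 0), -0.26 (high-negative left out) and -0.27 (wells summed), and ran between -0.71 and -0.46. In APOE4 hippocampus, DC against vehicle turned sign under TMM over all genes for Rrp36 (-0.88) and Eri3 (-0.95), and DD against DC under totals and TMM over all genes for Rrp36 (1.22, 1.27) and Eri3 (1.11, 1.17). Each of these values passed (edgeR adjusted p up to 0.0448). Without the filter more genes entered the adjustment, and the SE of the mean regional difference also rose in all 4 genes. For Rrp36 it rose from 0.074 to 0.119 and for Xrn1 from 0.089 to 0.094. The cause of the changed calls was not tested. Over the 4 regional means and 4 called contrasts within a region, 56 of 87 recomputed values kept direction and side of the threshold. Of the 87, which include the vehicle-only means, 29 lost the call and 2 turned sign. For the other 120 results, 1060 of 1305 kept both.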
